A study of Mus musculus with 8 samples.

Results

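The genes described here are 33 markers of myeloid cells in enzyme digests of mouse rib cartilage: 16 of macrophages, 10 of osteoclasts and 7 of granulocytes and their precursors. They were chosen by symbol. Each was read from the probe sets that the platform annotation gives to that symbol alone, and for a gene with several the brightest by mean over all 8 arrays was used, so all 33 were measured, of 18193 genes named in this way. The samples are primary chondrocytes, freed with collagenase and trypsin from rib cages of E18.5 embryos of FVB mice. Each of 4 litters gave a pool of wild type embryos (control) and a pool of Hoxd4 transgenic littermates, with 1 array per pool and so 4 arrays per group. The litter numbers used here are the biological replicate numbers of the sample titles. The labels name no promoter or line for the Hoxd4 transgene and no number of embryos per pool. Values are MAS5 signals, a linear brightness scaled to a common trimmed mean per array.

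Macrophages, osteoclasts and granulocytes are all blood-derived myeloid cells. Macrophages settle in most tissues, where they clear debris and make complement component C1q. Osteoclasts form by fusion of precursors under the cytokines CSF1 and RANKL and dissolve bone and calcified cartilage with acid and proteases. Granulocytes are made in marrow and fetal liver, and their precursors fill granules with antimicrobial proteins in a fixed order. Resting cartilage itself holds few blood vessels and few such cells, whereas the bone collar, muscle and marrow spaces around it hold them. On one array per pool, fewer cells of a type and less RNA per cell cannot be told apart.

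A gene entered the test where its mean signal over the 8 arrays lay above 105.9, the median over all probe sets. By this, 19 of the 33 were tested: 7 macrophage, 8 osteoclast and 4 granulocyte genes. Markers of the labelled cell type were bright: all 11 chondrocyte markers were tested, and their summed signal lay between 281600 and 317400 on every array. All 7 fibroblast and all 9 skeletal muscle markers were above the filter too. Their sums were 133700 to 159900 and 22030 to 33440, so the digests also held signal of markers of other cell types. The summed signal was 1521 to 3392 for the 16 macrophage genes, 3924 to 5892 for the 10 osteoclast genes and 2317 to 6976 for the 7 granulocyte genes. Median signals per array lay between 100.5 and 115. The overexpressed gene could be checked only through a pair of dim probe sets shared by Hoxd4 and Hoxd3. The brighter one went with the labels in litters 1 to 3 and against them in litter 4, where the control read 256 and the transgenic 13.0. The arrays of litter 4 thus go against their labels at this probe set, and whether they were exchanged was not tested. The dimmer probe set, at 8.92 to 48.0 on all arrays, was lower in the transgenic pool of litters 1 and 4 and slightly higher in that of litters 2 and 3. Groups are those the labels give, and the results that rest on litter 4 are also given without it. Xist, the RNA of the inactive X chromosome, had a log2 difference of -3.58 (transgenic minus control) at one probe set (limma adjusted p = 0.9997). The controls read 3386 to 6412 there, and the arrays labelled transgenic 43.6, 1062, 32.3 and, in litter 4, 3561, within the range of the controls. The Y-linked gene Eif2s3y had a log2 difference of 0.92 (limma unadjusted p = 2.38e-04, adjusted p = 0.9997). It read 616, 772, 358 and 486 in control litters 1 to 4 and 1178, 1127, 1100 and 813 in transgenics. The groups did not overlap there, and litter 4 went with the labels. At 1 probe set of Kdm5d, also Y-linked, litter 4 went against them (143 in the control, 82.05 in the transgenic). The part of such sex-linked differences in the results below was not tested.

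Granulocyte genes were high and low in the same pools, and none passed the test between the genotype labels. S100a8 and S100a9 encode the subunits of calprotectin, an antimicrobial calcium-binding protein of neutrophils. For S100a8 the control signals in litters 1 to 4 were 1535, 2602, 940.4 and 1796, and the transgenic ones 1378, 1286, 1202 and 3214. S100a9 had 1307, 2360, 1034 and 1330 in controls and 1193, 927, 872 and 2583 in transgenics. Both were brightest in the same pools, the pool of litter 4 labelled transgenic and the control pool of litter 2, and the groups overlapped. Ngp, a granule protein of neutrophil precursors, had signals of 231, 438, 186 and 282 in controls and 224, 251, 219 and 626 in transgenics. Ltf encodes lactoferrin, the iron-binding protein of secondary granules, and had 99.1, 204, 80.3 and 149 in controls and 114, 116, 79.6 and 248 in transgenics. All 4 tested granulocyte genes were thus highest in the pool of litter 4 labelled transgenic and next highest in the control pool of litter 2, and the transgenic pool of litter 3 was among the lowest 2 for each of them. From the lowest to the highest array, S100a8 differed 3.42-fold, S100a9 2.96-fold, Ngp 3.37-fold and Ltf 3.11-fold.

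Of the 3 granulocyte genes too dim to be tested, 1 had its high values in the same pools. Camp, the cathelicidin antimicrobial peptide of secondary granules, had signals of 160 in the control pool of litter 2 and 167 in the pool of litter 4 labelled transgenic, against 4.06 to 50.9 in the other 6 arrays. Mpo, the myeloperoxidase of primary granules, was highest in the pool of litter 4 labelled transgenic (125) and lay between 43.9 and 97.8 elsewhere. Elane, the neutrophil elastase of the same granules, stayed between 3.15 and 31.7 on all arrays and was highest in the control pool of litter 1. Dim MAS5 values are noisy, so no ratios are given for them. Of the further granulocyte genes listed for comparison, 14 were on the array and 2 were tested, Lcn2 and Anxa1. Lcn2, the siderophore-binding lipocalin of secondary granules, had 120, 199, 63.7 and 140 in controls and 113, 96.0, 95.1 and 191 in transgenics, again with the same pair of pools at the top. Anxa1, annexin A1, which many cell types make, had 3291 to 4763.

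**Figure D1:**
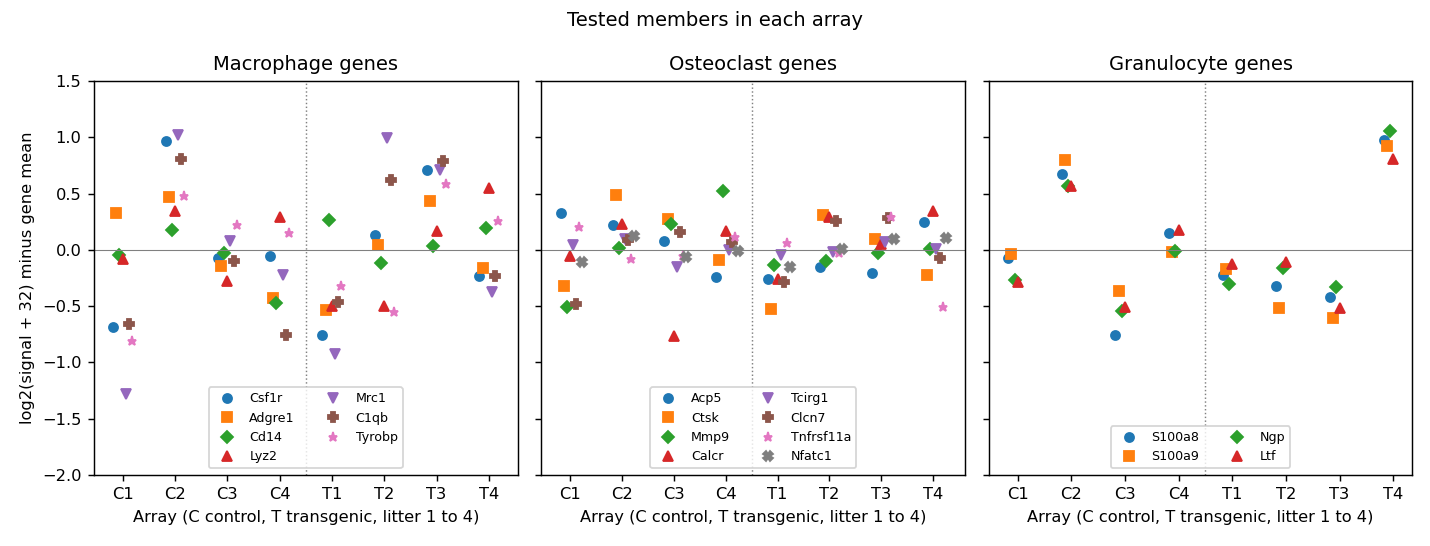
Points show log2(signal + 32) of each tested gene minus that gene's mean over the 8 arrays, by array, for macrophage (7 genes), osteoclast (8) and granulocyte genes (4). The 4 granulocyte genes move as a block, highest in T4 and C2, while the macrophage genes Mrc1, Csf1r and C1qb are high in C2 and T3 and 7 of the 8 osteoclast genes have T1 among their lowest 2 arrays.

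Because these 4 granulocyte genes moved together, their promoters are shown. RefSeq sequences were given for 25 of the 33 genes (build GRCm38.p6), each from 250 bases before to 50 after a transcription start, printed 5′ to 3′ on the gene's strand. Capitals mark matches, on either strand, to 3 motifs: GAGGAA, the core bound by PU.1 and other ETS factors, TTNNGNAA, a loose form of the C/EBP site, and TATAAA, the TATA box. PU.1 and C/EBP proteins are the main transcription factors of macrophage and granulocyte development. S100a8 (chr3:90668821-90669120, plus strand) and S100a9 (chr3:90695672-90695971, minus strand) are direct neighbours, with 0 genes starting between them in the RefSeq order. Ngp lies at chr9:110419558-110419857 and Ltf at chr9:111019042-111019341, both on the plus strand.
S100a8: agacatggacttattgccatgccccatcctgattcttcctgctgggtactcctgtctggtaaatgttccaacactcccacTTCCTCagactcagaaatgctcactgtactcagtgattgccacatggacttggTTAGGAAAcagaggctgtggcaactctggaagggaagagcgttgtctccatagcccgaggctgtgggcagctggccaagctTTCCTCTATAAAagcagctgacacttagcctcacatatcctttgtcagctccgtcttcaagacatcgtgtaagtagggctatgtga
S100a9: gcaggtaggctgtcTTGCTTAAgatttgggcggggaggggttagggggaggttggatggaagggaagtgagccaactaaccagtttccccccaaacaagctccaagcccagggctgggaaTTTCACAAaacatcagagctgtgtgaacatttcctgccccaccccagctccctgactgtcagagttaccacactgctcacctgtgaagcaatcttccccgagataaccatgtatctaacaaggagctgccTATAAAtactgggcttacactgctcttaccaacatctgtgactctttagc
Ngp: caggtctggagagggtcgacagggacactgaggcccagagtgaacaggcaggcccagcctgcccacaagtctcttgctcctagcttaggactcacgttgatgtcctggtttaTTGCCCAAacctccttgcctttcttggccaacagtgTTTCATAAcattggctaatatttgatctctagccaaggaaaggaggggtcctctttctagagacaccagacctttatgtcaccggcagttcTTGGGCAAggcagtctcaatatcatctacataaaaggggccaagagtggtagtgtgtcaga
Ltf: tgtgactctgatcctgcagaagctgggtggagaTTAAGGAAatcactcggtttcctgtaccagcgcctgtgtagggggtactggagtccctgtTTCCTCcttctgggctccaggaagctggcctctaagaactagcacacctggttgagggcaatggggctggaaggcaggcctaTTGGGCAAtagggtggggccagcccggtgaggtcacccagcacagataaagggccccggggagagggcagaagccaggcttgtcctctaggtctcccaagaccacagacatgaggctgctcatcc
S100a8 and S100a9 each hold 1 TATAAA, which 13.6% of the 32851 promoters of this length hold. The TTNNGNAA motif was matched 1 time in S100a8, 2 times in S100a9, 3 times in Ngp and 2 times in Ltf, and 40.7% of all promoters hold at least 1. GAGGAA was matched 2 times in S100a8, 0 times in S100a9 and Ngp and 1 time in Ltf, against 28.3% of all promoters with at least 1. No matches of different motifs overlapped in these 4 windows. A match is a run of letters and was not tied to any binding measured here.

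Macrophage genes also varied between pools, in another order, and not all of them together. Mrc1, the mannose receptor of resident macrophages, read 73.8, 488, 239 and 188 in control litters 1 to 4 and 103, 479, 389 and 167 in their transgenic littermates. C1qb, a chain of complement C1q, had 121, 388, 192 and 110.2 in controls and 142, 338, 385 and 172 in transgenics. Csf1r, the receptor for CSF1 on which most macrophages depend, had 244, 840, 393 and 398 in controls and 232, 456, 695 and 346 in transgenics. These 3 genes were high in both pools of litter 2 and in the transgenic pool of litter 3, low in both pools of litter 1 (C1qb also in the control pool of litter 4), and overlapped between genotypes. Their highest array exceeded their lowest 6.62-fold for Mrc1, 3.52-fold for C1qb and 3.62-fold for Csf1r. Csf1r has 3 probe sets, and the others had an r of 0.63 and 0.52 with the one used. Their log2 differences were 0.42 and -0.33. The second of them was low in the transgenic pool of litter 3 (134) and read 224 in the control pool of litter 2.

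The other tested macrophage genes followed that order in part or not at all. Adgre1, which encodes the F4/80 antigen, had 211, 236, 144 and 112 in controls and 102, 168, 231 and 141 in transgenics. Tyrobp, the DAP12 signalling adaptor, had 68.9, 214, 174 and 164 in controls and 109, 88.2, 234 and 179 in transgenics. Both shared the high values of the control pool of litter 2 and the transgenic pool of litter 3, but not those of the transgenic pool of litter 2. Lyz2, lysozyme M, which granulocytes make as well, had 212, 295, 181 and 284 in controls and 150.1, 149.7, 257 and 346 in transgenics. Cd14, the lipopolysaccharide coreceptor, had 230.0, 273, 234 and 163 in controls and 294, 217, 244 and 276 in transgenics. Lyz2 was highest where the granulocyte genes were highest, and Cd14 was highest in the transgenic pool of litter 1, where Mrc1, C1qb and Csf1r were low.

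Of the 9 macrophage genes below the filter, the other C1q chains were highest in the same 3 pools as C1qb. C1qa, the A chain, had 150 in the control pool of litter 2, 120 and 122 in the transgenic pools of litters 2 and 3, and 5.66 to 32.2 elsewhere. C1qc, the remaining chain, had 86.3 in the control pool of litter 2 and 61.4 and 95.5 in the transgenic pools of litters 2 and 3, against 4.17 to 56.4 elsewhere. Fcgr3, a low-affinity Fc receptor for immunoglobulin G, had 32.5, 98.2, 57.9 and 30.6 in controls and 66.4, 122, 134 and 74.9 in transgenics. It was higher in the transgenic array of all 4 litters, though the groups overlapped. In the fit without a filter its log2 difference was 0.63 (95% interval -0.01 to 1.27, limma unadjusted p = 0.0546, adjusted p = 0.9999). The general myeloid or leukocyte markers Cd68, Ptprc and Fcer1g lay between 39.0 and 123 on every array. Itgam, Cd163 and Aif1, an integrin, a scavenger receptor and a calcium-binding protein of macrophages, lay between 1.90 and 64.8, so no order of the pools can be read from them.

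**Figure D2:**
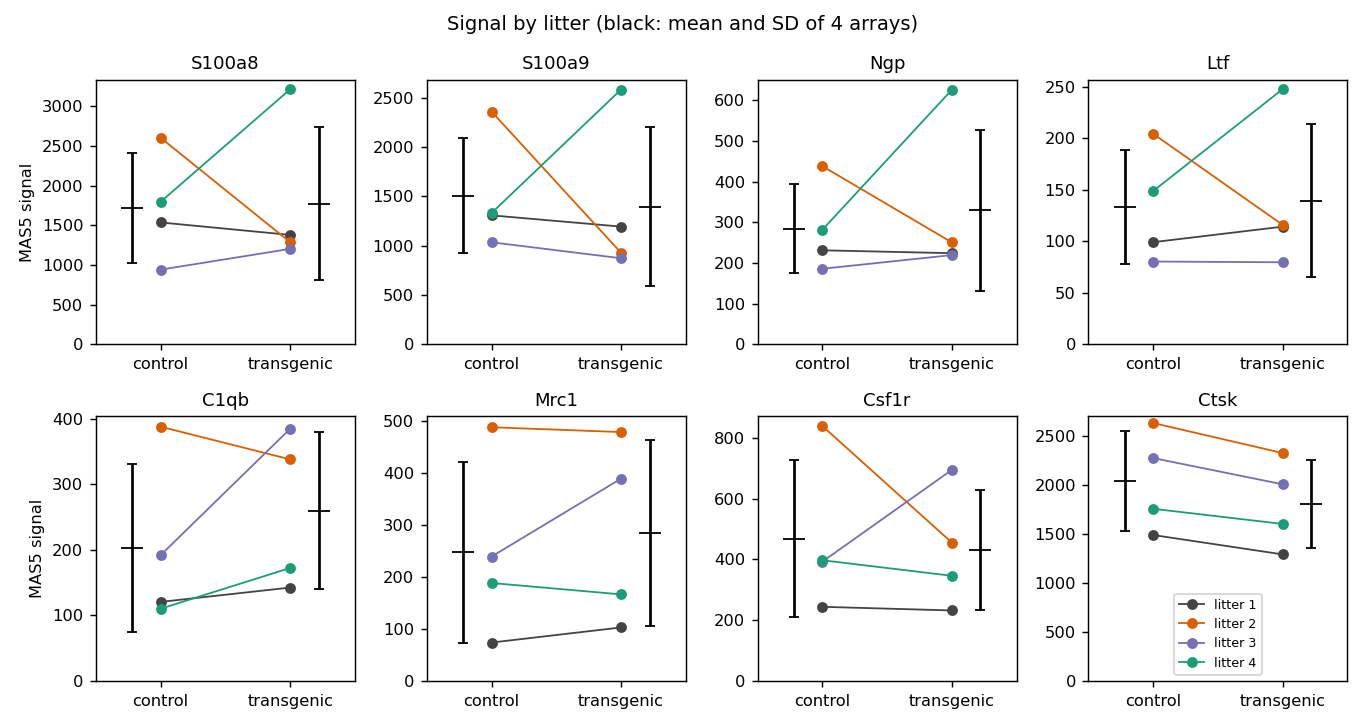
MAS5 signal (vertical axes, from 0) of 8 genes in the control and transgenic pool of each litter, joined by litter, with the mean and SD of 4 arrays in black. S100a8, S100a9, Ngp and Ltf are higher in the pool of litter 4 labelled transgenic and lower in that of litter 2, C1qb and Csf1r are higher in that of litter 3, and Ctsk is lower in the transgenic pool of all 4 litters by a small margin.

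The promoters of C1qb (chr4:136886151-136886450, minus strand) and Mrc1 (chr2:14229164-14229463, plus strand), the pair of macrophage genes whose correlation was tested below and called, are shown in the same way.
C1qb: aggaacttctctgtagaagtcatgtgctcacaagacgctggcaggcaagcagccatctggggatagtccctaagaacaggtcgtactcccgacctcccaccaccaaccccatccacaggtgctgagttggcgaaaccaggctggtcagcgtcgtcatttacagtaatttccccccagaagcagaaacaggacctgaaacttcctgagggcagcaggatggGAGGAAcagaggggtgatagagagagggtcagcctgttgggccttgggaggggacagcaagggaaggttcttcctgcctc
Mrc1: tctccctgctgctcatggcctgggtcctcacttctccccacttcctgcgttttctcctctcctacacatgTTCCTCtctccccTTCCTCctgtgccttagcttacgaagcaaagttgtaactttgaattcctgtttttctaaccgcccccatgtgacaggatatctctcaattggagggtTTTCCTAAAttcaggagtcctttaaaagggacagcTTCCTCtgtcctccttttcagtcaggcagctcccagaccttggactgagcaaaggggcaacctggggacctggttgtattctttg
GAGGAA was matched 1 time in C1qb and 3 times in Mrc1. TTNNGNAA was matched 0 times in C1qb and 2 times in Mrc1, and TATAAA in neither. Of the 25 genes with a sequence, 15 held GAGGAA, 18 held TTNNGNAA and 3 held TATAAA in at least 1 of their windows, of which some genes have more than 1. C1qa, C1qc and C1qb lie side by side on chromosome 4, with 0 genes starting between neighbours.

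Osteoclast genes shared a low pool but no high one. The transgenic pool of litter 1 was among the lowest 2 arrays for 7 of the 8 tested genes, all but Tnfrsf11a. It was also among the lowest 2 for 4 of the 7 tested macrophage genes, and for 0 of the 4 granulocyte genes. The share over all tested genes was not computed. No pool was among the highest 2 for more than 3 of the osteoclast genes, and the transgenic pool of litter 1 was so for 0. Their SD of log2(signal + 32) over the 8 arrays ran from 0.08 (Tcirg1) to 0.37 (Calcr), against 0.23 (Cd14) to 0.86 (Mrc1) for the tested macrophage genes. Acp5, the tartrate-resistant acid phosphatase by which osteoclasts are stained, read 640.1, 592, 534 and 423 in control litters 1 to 4 and 415, 451, 432 and 604 in their transgenic littermates. It was therefore high in 3 control pools and in the pool of litter 4 labelled transgenic, and the groups overlapped. In litters 1 to 3 the controls read 534 to 640.1 and the transgenics 415 to 451. Without both arrays of litter 4 the log2 difference of Acp5 was -0.41 (limma adjusted p = 0.9999), beside -0.19 with all 8 arrays. Ctsk, cathepsin K, the collagenase of bone resorption that fibroblasts can make too, had 1490, 2634, 2276 and 1758 in controls and 1292, 2327, 2008 and 1603 in transgenics. Its litters kept their order in both genotypes, litter 2 highest and litter 1 lowest, and the transgenic pool was lower by 0.20, 0.18, 0.18 and 0.13 on the log2 scale in litters 1 to 4. Mmp9, a gelatinase of osteoclasts, neutrophils and macrophages, had 98.4, 156, 185 and 235 in controls and 137, 141, 151 and 155 in transgenics. Its transgenic values lay within the range of the controls. A second, dimmer probe set of Mmp9, below the filter, had a log2 difference of 0.65 (95% interval 0.10 to 1.21), so the probe sets of this gene disagree.

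Tcirg1 and Nfatc1 had the smallest SD of the 19 tested genes at the probe sets used. Tcirg1, a subunit of the proton pump, had 585, 608, 504 and 567 in controls and 546, 556, 596 and 570 in transgenics, a span of 1.21-fold. Clcn7, the chloride-proton exchanger that works with the pump, had 219, 339, 358 and 334 in controls and 254, 385, 393 and 299 in transgenics. Both are lysosomal genes that other cells express, and Clcn7 was low in both pools of litter 1 at the probe set used. Another tested probe set of Clcn7 had an r of only 0.19 with it. That one read 310 in the control pool of litter 1 and 208 in the transgenic pool, so the probe sets of this gene disagree. Nfatc1, the transcription factor that drives osteoclast formation and also acts in heart valves and other tissues, had 1036, 1220, 1070 and 1111 in controls and 1007, 1127, 1198 and 1209 in transgenics. Its other tested probe sets had r of 0.12, 0.06, 0.54 and -0.41 with this one. The brightest of those ran from 683 to 1061, so the small spread holds for the probe set used. Tnfrsf11a, the RANK receptor, had 129, 100.1, 103 and 120 in controls and 114, 105, 139 and 66.1 in transgenics. Calcr, the calcitonin receptor, had 127, 162, 65.1 and 153 in controls and 106, 170, 139 and 177 in transgenics. These last 2 lay close to the filter, and their groups overlapped. Oscar, an immunoglobulin-like costimulatory receptor, and Atp6v0d2, the pump subunit needed for fusion, were below the filter at 3.62 to 93.6 on every array.

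No gene of the 3 classes passed the test between the genotype labels. Of the 19 tested genes 10 were higher and 9 lower in arrays labelled transgenic. In limma 0 of 19 passed an adjusted p of 0.05 (adjusted p = 0.9997 for each), against 0% of 22518 tested probe sets, and 0 of 19 had an unadjusted p under 0.05, against 3.29%. With all 33 genes in a fit without the filter, 0 passed and 0 had an unadjusted p under 0.05. The share of all probe sets under that unadjusted p was not computed for this fit. For 0 of 19 did the 4 control and 4 transgenic signals lie apart, against 2.27% of all tested probe sets. Ctsk alone had all 4 litters in 1 direction, 1 of 19 genes, against 13.4% of all tested probe sets. The log2 differences, on the scale with 32 added to the signal, lay between -0.14 and 0.36 for macrophage, -0.19 and 0.21 for osteoclast and -0.19 and 0.13 for granulocyte genes. Their medians were -0.02, -0.04 and 0.02, beside -0.0008 over all 11013 tested genes.

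How narrow a difference these arrays allow varied by gene. The 95% interval of the log2 difference was -0.20 to 0.21 for Tcirg1 and -0.16 to 0.22 for Nfatc1. For Acp5 the log2 difference was -0.19 (95% interval -0.50 to 0.12). For S100a8 it was 0.01 (95% interval -0.64 to 0.65), for S100a9 -0.19 (-0.82 to 0.45) and for Ngp 0.13 (-0.50 to 0.76). For C1qb it was 0.36 (95% interval -0.37 to 1.09) and for Mrc1 0.20 (-0.77 to 1.17). The intervals of Mrc1 and C1qb were the widest of the 19 genes, and that of Nfatc1 the narrowest. For Ctsk the log2 difference was -0.17 (95% interval -0.57 to 0.22). With the litter as a block, which removes what both pools of a litter share, the interval of Ctsk narrowed to -0.30 to -0.04 (unadjusted p = 0.0152, limma adjusted p = 0.84), lower in 4 of 4 litters. In that fit 1 of 19 genes had an unadjusted p under 0.05, against 5.54% of all tested probe sets, and 0 passed the adjusted threshold. With the litter as a random block 0 of 19 had an unadjusted p under 0.05, against 5.63%.

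Single pools set the direction of the class medians. Without the pool of litter 4 labelled transgenic the median log2 difference of the granulocyte genes was -0.28, without both arrays of litter 4 it was -0.23, and without the control pool of litter 2 it was 0.22. The macrophage median was -0.22 without the transgenic pool of litter 3 and 0.23 without the control pool of litter 2. No probe set on the array passed the adjusted threshold with all 8 arrays, 1 passed without the transgenic array of litter 4 (Xist) and 2 passed without both arrays of litter 4 (both of Dcaf12l1), and none of these is a gene of the 3 classes.

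**Figure D3:**
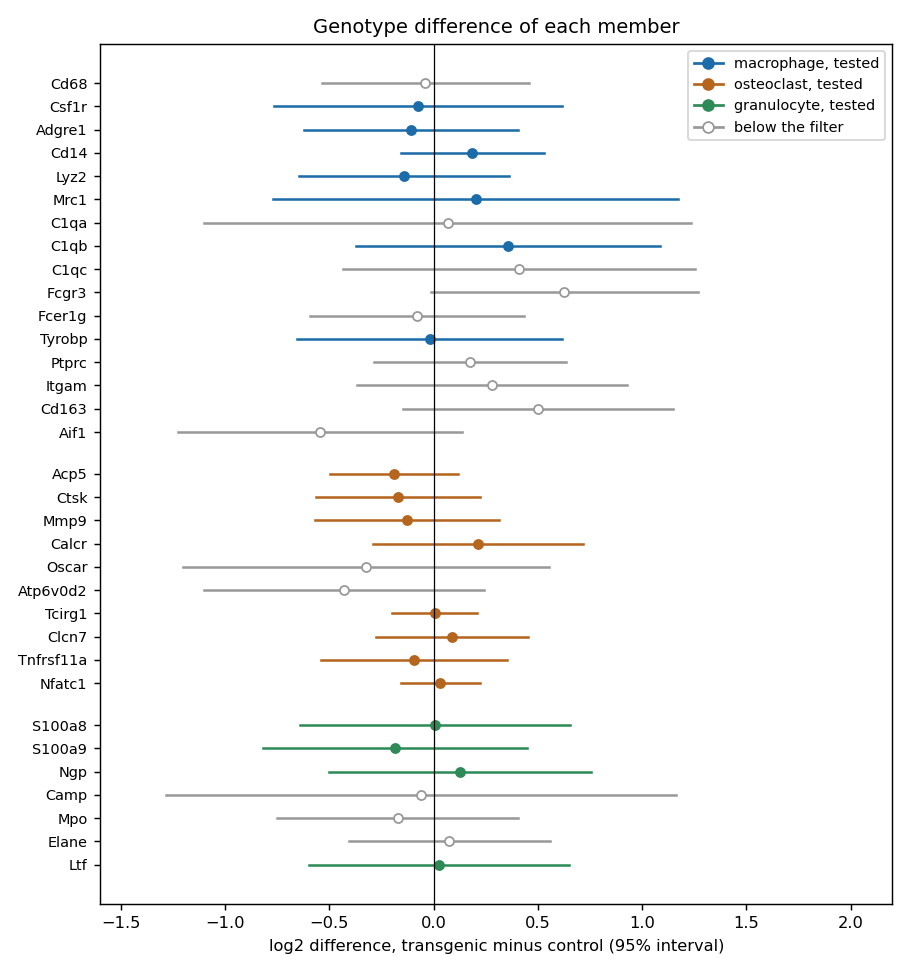
Points give the fitted log2 difference, transgenic minus control, of each of the 33 genes, and bars its 95% interval. Filled points are the 19 tested genes, and open grey points the 14 genes below the filter, taken from the fit without it. Every interval of a tested gene includes 0.

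Between pools, several of these genes varied more than most genes of like brightness. The SD of log2(signal + 32) over the 8 arrays had a median of 0.38 for the 19 genes, beside 0.15 for all tested genes, and 17 of the 19 lay above the latter. Among tested probe sets of like mean signal (1 of 5 equal classes), 0.111% had a larger SD than S100a8, 0.222% than S100a9, 0.200% than Mrc1, 0.266% than Csf1r, 0.489% than C1qb and 0.844% than Ctsk. At the other end, 97.2% had a larger SD than Tcirg1 and 75.8% than Nfatc1. The spread between pools thus differed widely among these genes.

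Pairs of genes were then compared across the 8 arrays. Of 22 pairs listed, 16 had both genes tested. Their p-values come from exact two-sided permutation tests over 40320 orders with Benjamini-Hochberg adjustment over the 16. The genes were chosen with earlier results of these data known, and the p-values make no allowance for that choice. S100a8 and Ngp had a Pearson r of 0.96 (exact p = 2.48e-04, adjusted 0.00397) and a Spearman rho of 0.93 (exact p = 0.00223, adjusted 0.0179). S100a8 and S100a9 had an r of 0.94 (exact p = 0.00174, adjusted 0.0139) and a rho of 0.93 (exact p = 0.00223, adjusted 0.0179). Without the control pool of litter 2 and the pool of litter 4 labelled transgenic, the arrays farthest from the median of S100a8, the r was 0.89 with Ngp and 0.69 with S100a9. The first was nearly as high without these pools, and the second rested in larger part on them. Without both arrays of litter 4 the r was 0.95 with Ngp and 0.90 with S100a9, neither called (exact permutation tests over 6 arrays, adjusted p = 0.11 and 0.16). C1qb and Mrc1 had an r of 0.90 (exact p = 0.00553, adjusted 0.0295) and a rho of 0.83 (exact p = 0.0154, adjusted 0.082). Without the control pool of litter 2 and the transgenic pool of litter 3 their r was 0.84.

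Arrays of a litter share parents, so the 8 are not fully independent, and the pairs were looked at again with group means taken out. With the genotype means removed and orders permuted within genotypes only, the r was 0.97 for S100a8 and Ngp (exact p = 0.00521, adjusted 0.0417), 0.96 for S100a8 and S100a9 (exact p = 0.00174, adjusted 0.0278) and 0.91 for C1qb and Mrc1 (exact p = 0.0226, adjusted 0.12). With the litter means removed the r was 0.95, 0.92 and 0.71 in the same order, with no test. The C1qb probe set used has a suffix that marks possible cross-hybridisation. With the C1qb probe set that lacks such a suffix, whose signals fell to 11.3 in the transgenic pool of litter 1, the r with Mrc1 was 0.66 (exact permutation test, adjusted p = 0.27). That probe set also turned the genotype difference of C1qb to -0.44, while the third one gave 0.30.

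The other 13 pairs had r between -0.42 and 0.62, with adjusted p of 0.42 or more in the exact permutation tests. Across classes, S100a8 and C1qb had an r of -0.04, C1qb and Acp5 one of -0.05 and S100a8 and Acp5 one of 0.47 (exact permutation tests, adjusted p = 0.94, 0.94 and 0.78). Within the osteoclast class Acp5 and Ctsk had an r of 0.10 (exact permutation test, adjusted p = 0.94). Run without the filter, all 22 pairs could be compared, and 6 passed in the exact permutation test: the 3 above, Ngp and Camp (r = 0.95, adjusted p = 0.00682), C1qa and C1qb (r = 0.92, adjusted p = 0.0354) and C1qb and C1qc (r = 0.86, adjusted p = 0.0476). The r of the last 2 was 0.81 and 0.72 without the control pool of litter 2 and the transgenic pool of litter 3, and that of Ngp and Camp was 0.82 without the control pool of litter 2 and the pool of litter 4 labelled transgenic.

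As a description over all 171 pairs of tested genes, with no test, the 6 pairs of granulocyte genes had a median r of 0.95 and lay between 0.92 and 0.96. The 21 macrophage pairs had a median of 0.41 and the 28 osteoclast pairs one of 0.08, beside 0.00 over all pairs of tested genes. An r of at least 0.7 was reached by 6 of 6 granulocyte, 4 of 21 macrophage and 2 of 28 osteoclast pairs, and by 3.22% of pairs among all tested genes. The highest values between classes tied Mrc1 to Ctsk and to Clcn7 (0.90 each) and Csf1r to Ctsk (0.84). Lyz2 had an r of 0.76 with S100a8 and of 0.03 with C1qb. Tnfrsf11a ran opposite to the granulocyte genes (-0.79 with Ngp). All these pairs share the same 8 arrays and their scaling.

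**Figure D4:**
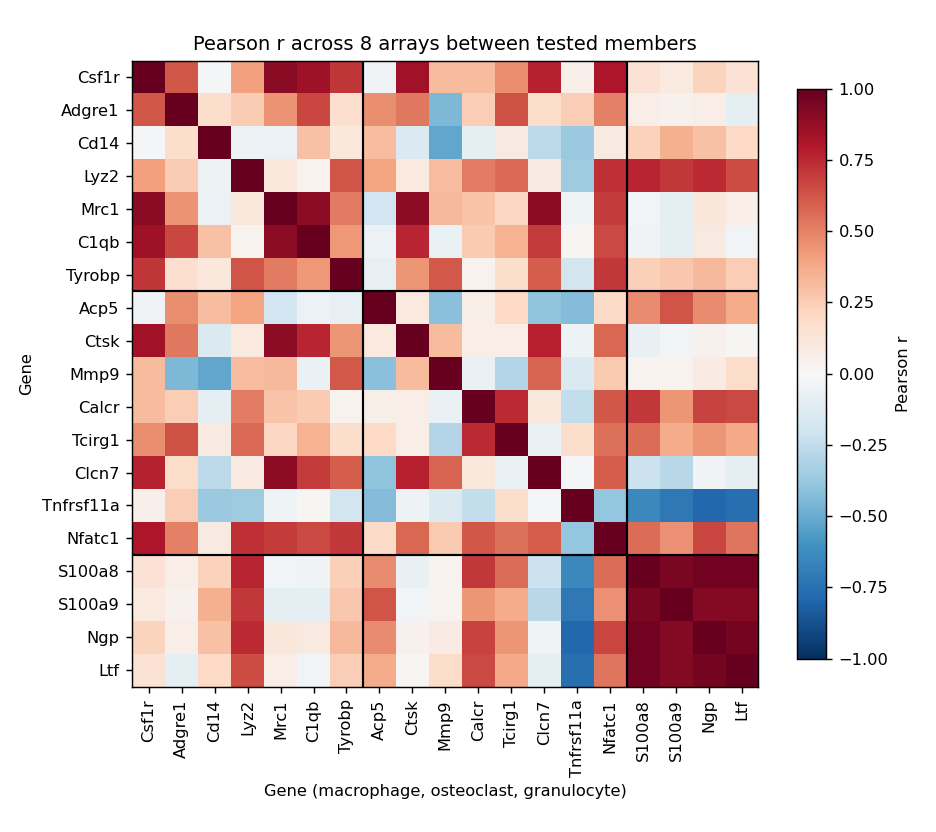
Colour gives the Pearson r of log2(signal + 32) across 8 arrays for each pair of the 19 tested genes, with black lines between macrophage, osteoclast and granulocyte genes. The 4 granulocyte genes form a block with r of 0.92 to 0.96, and Mrc1, C1qb and Csf1r (0.85 to 0.90) form another with Ctsk and Clcn7. Each gene is read from its brightest probe set, and other probe sets of C1qb, Csf1r and Clcn7 differ.

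Among all other tested genes, those with a pattern most like S100a8 over the 8 arrays were Lcn2 (r = 0.97), Ngp (0.96), Ltf (0.96), S100a9 (0.94) and Kif3a (0.94). The search ran over the 11013 tested genes. Of these 5, Ngp, Ltf and S100a9 belong to the granulocyte class, and their r with S100a8 is the one already described above, not a further result. Lcn2 is in the further granulocyte list, and Kif3a is a kinesin motor of cilia. For C1qb the nearest were Tgfbr2 (0.98), Gem (0.97), Klf2 (0.97), Pf4 (0.96) and Kif13b (0.96), with Mrc1 in place 40 and Csf1r in place 130. Pf4, platelet factor 4, which fetal macrophages and megakaryocytes make, had 313, 855, 411 and 299 in controls and 270, 680.3, 730 and 313 in transgenics. For Acp5 they were Pcsk6 (0.96), Nudt18 (0.95), Fcf1 (0.94), Cdiptos (0.94) and Ring1 (0.93), of which none is in the osteoclast lists. These values describe 8 arrays that share their scaling, with no test.

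Genes of the same cells from longer lists gave no called difference either. Of 25 further macrophage genes on the array 7 were tested, 3 higher and 4 lower in arrays labelled transgenic, with 0 at an unadjusted p under 0.05 in limma. Ctss, the cathepsin of antigen processing, had 43.7, 180.2, 129 and 99.2 in controls and 68.0, 208, 239 and 81.5 in transgenics, high in the same pools as Mrc1. Lyve1, Lst1 and Lgmn had log2 differences of -0.37, -0.40 and 0.14. Of 15 further osteoclast genes 11 were tested, 5 higher and 6 lower, with 0 at that p. Among them Ckb, a creatine kinase, Car2, the carbonic anhydrase of acid secretion, Mitf and Traf6 had log2 differences of -0.15, -0.20, 0.13 and -0.11. Dcstamp and Ocstamp, the fusion proteins of osteoclasts, were below the filter. In the fit without the filter, 3 genes of the further lists that were too dim to be tested had an unadjusted p under 0.05. They went in both directions, with a limma adjusted p = 0.9999 each. The share of all probe sets under that unadjusted p was not computed for this fit, so the count has no background beside it. The log2 difference was 1.14 (95% interval 0.29 to 1.98) for Ccr2, a chemokine receptor of monocytes, -0.48 (-0.93 to -0.02) for Dcstamp and 0.62 (0.13 to 1.12) for Cd79b, a B cell receptor chain. Of 8 cytokine genes that act on these cells 3 were tested, with log2 differences near 0: Csf1 (-0.09), Tnfrsf11b, the RANKL decoy osteoprotegerin (-0.02), and Il1b (-0.01). Tnfsf11, RANKL itself, and Il34 were below the filter, with log2 differences of -0.63 (95% interval -1.29 to 0.02) and -0.10 without it.

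Sums of other cell types' markers were highest in some of the same pools. The summed signal of 9 skeletal muscle markers ran from 22030 to 33440 and was highest in the control pool of litter 2. So were the sums of 7 megakaryocyte markers (920.4 to 1727) and of 9 mast cell and basophil markers (762 to 1441). Pf4, at 855 in that pool, was the brightest megakaryocyte marker there. Single genes of these lists did not all peak in that pool. Tnnt3 was highest in the control pool of litter 1, Itga2b in that of litter 4 and Tpsab1 in that of litter 3. Ckm, muscle creatine kinase, had 1101, 2136, 1151 and 1281 in controls and 1147, 1928, 2168 and 2072 in transgenics. Cpa3, the mast cell carboxypeptidase, had 172, 466, 288 and 257 in controls and 211, 315, 352 and 491 in transgenics. Their part in the pattern of the myeloid genes was not tested. Red cell markers took another course, with Alas2, the haem synthesis enzyme, highest in the control pool of litter 3 (6100), and its r with S100a8 was -0.27 (exact permutation test, adjusted p = 0.91). Cdh5, the cadherin of endothelial junctions, was the 1 tested gene of these lists with an unadjusted p under 0.05 in limma. That is 1 of 7 tested endothelium markers and none of the other lists, against 3.29% of all tested probe sets. Cdh5 read 189, 252, 261 and 304 in controls and 140, 165, 159 and 147 in transgenics. Its log2 difference was -0.60 (95% interval -0.94 to -0.27, limma adjusted p = 0.9997). The sums over groups were 6535 to 13860 in controls and 5443 to 10750 in transgenics for erythroid, 1638 to 2211 and 1253 to 1987 for endothelium, 1282 to 1770 and 1280 to 1565 for osteoblast, 1448 to 2010 and 1354 to 1736 for lymphocyte and 134500 to 153000 and 133700 to 159900 for fibroblast markers. The lymphocyte markers Cd3e, Cd3g, Cd79a, Cd79b, Ms4a1, Cd4, Rag1 and Nkg7 were below the filter.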

How the data were processed

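RNA of 8 pools of rib cells was measured on 1 one-colour Affymetrix array per pool. The deposited values are linear probe set intensities, made by the authors with MAS5 as the submitters' processing notes say, and no version of it is stated. In the values, the mean of each array without its top and bottom 2% is 500. The number of arrays, 4 per group, limits the precision.

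Of 45101 probe sets 64 controls were left out. The rest were turned to log2(signal + 32), 32 being the rounded median over arrays of the 25th percentile, and the 22518 with a mean above the median were tested with limma 3.58.1 in R 4.3.3 (lmFit, eBayes with intensity trend, transgenic minus control, Benjamini-Hochberg over all tested probe sets). Intervals are 95% intervals of that fit. Probe sets were named through GEO's platform annotation, and 0 symbols of the 33 genes changed on lookup by gene identifier in RefSeq (GRCm38.p6). Every tested gene of the 3 classes was named with its values, the rest by range, of the further lists at most 4 tested genes with the smallest p, and for 3 genes the 5 most alike in pattern; Ccr2, Cd79b, Dcstamp, Ocstamp, Tnfsf11, Il34 and the values of Pf4 were added after these were seen. The fits and the correlation test were tested on simulated data. Python 3.11.15, scipy 1.17.1 and matplotlib 3.10.9 were used otherwise.

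The genes and lists were chosen with earlier results of these data known. The sample titles number the pools of each group as biological replicates 1 to 4, and same-numbered pools were taken as 1 litter. Their deviations from the group means correlated at 0.28, 0.17, 0.04 and 0.14 for litters 1 to 4, against a mean of -0.05 for different litters. The chosen fit has no litter block.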

Additional observations from a re-analysis of the deposited data

Results flagged for a closer look

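Among the 19 tested genes, 2 of 38 sets of 4 arrays held a pool that stood far from the other 3 by Dixon's criterion, which chance meets in about 1 in 20 such sets. S100a8 read 3214 in the pool of litter 4 labelled transgenic, against 1202 to 1378 in the other transgenic pools, a gap of 0.91 of the range. Ngp read 626.2 in the same pool, against 219 to 251 in the others, a gap of 0.92 of the range. The pool was not left out of the reported values.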

How the results depend on the processing

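With 4 arrays per group the median half-width of a 95% interval was 0.27 on the log2 scale, and narrower for about as many probe sets as it was wider. Under no alternative did a gene of the 3 classes pass the adjusted threshold (0 in each), and the other values kept direction and call save the following, whose cause was not tested. The macrophage median, -0.0201 as reported, was 0.1202 without a filter, 0.0162 with quantile normalization and 0.0065 with the mean of all tested probe sets per gene, and the granulocyte median, 0.0152 as reported, was -0.0101 with array weights. Quantile normalization gave Tyrobp 0.0162. The mean of all tested probe sets per gene gave Csf1r 0.0065 and C1qb with Acp5 an r of 0.038. Array weights gave S100a8 -0.0076 and Ltf -0.0126. Probe sets without a suffix gave C1qb -0.4352 and 0 called pairs of the 4 that could be run, with no value for Adgre1, Acp5, Tcirg1 and S100a8, which have none. Without a filter 6 of 22 pairs were called. With genotype means removed, Acp5 with Ctsk had an r of -0.01 and C1qb with Acp5 one of 0.079, and C1qb with Mrc1 was no longer called (adjusted p = 0.12, and 0.27 without suffixed probe sets, in exact permutation tests).

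The litter pairing follows the replicate numbers in the sample titles. With the litter as a replicate block, 0 genes of the 3 classes passed and their class medians were -0.02, -0.045 and 0.015 (macrophage, osteoclast, granulocyte). The log2 difference of Ctsk stayed at -0.17. With litter means removed, C1qb with S100a8 had an r of 0.618. The block changed no call in the genotype fits.

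Leaving out each array or litter in turn, 0 to 2 probe sets of the whole array were called (1 without the pool of litter 4 labelled transgenic, 2 without litter 4) and 0 to 3 pairs (0 without litter 4, and 1 each without the control pool of litter 2, the pool of litter 4 labelled transgenic, litter 1, litter 2 or litter 3). With fewer arrays the permutation test has fewer orders, and over these omissions the r was 0.949 to 0.979 for S100a8 with Ngp, 0.894 to 0.98 for S100a8 with S100a9 and 0.804 to 0.967 for C1qb with Mrc1. The class medians changed sign, at -0.2197 to 0.2784, -0.0789 to 0.0163 and -0.2799 to 0.2996. The log2 differences of 15 genes included both signs: Csf1r -0.3618 to 0.2324, Adgre1 -0.3385 to 0.1398, Lyz2 -0.3493 to 0.0942, Mrc1 -0.1906 to 0.5753, Tyrobp -0.2933 to 0.3168, Mmp9 -0.3183 to 0.0261, Calcr -0.0082 to 0.3505, Tcirg1 -0.0696 to 0.0474, Clcn7 -0.059 to 0.1964, Tnfrsf11a -0.2404 to 0.0827, Nfatc1 -0.0109 to 0.0858, S100a8 -0.3197 to 0.3399, S100a9 -0.5611 to 0.1919, Ngp -0.2052 to 0.4126 and Ltf -0.24 to 0.2592. Cd14, C1qb, Acp5 and Ctsk kept their sign. The r of Acp5 with Ctsk ran from -0.232 to 0.391, that of C1qb with Acp5 from -0.301 to 0.217 and that of C1qb with S100a8 from -0.359 to 0.271.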
